A study of Mus musculus with 6 samples.

Results

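The SLC25 family comprises the carriers that move metabolites, nucleotides, cofactors and ions across the inner mitochondrial membrane. Its members here are all genes of the deposited FPKM table whose symbol is Slc25a followed by a number and which have a value in every library, 47 of the 19306 genes with values. Of these, 40 reached at least 0.5 FPKM in at least 3 libraries and were tested, and 7 did not. FPKM counts sequenced fragments relative to transcript length and library size, so levels can be compared between genes. Carriers that belong to the same fold but go by other names, such as Ucp2 and Mtch1, are not among the 47 and are described separately.

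RNA was sequenced from ipsilateral L3-5 dorsal root ganglia (DRG) of wild-type C57BL/6 mice on day 14, in 6 libraries. In 3 LAS libraries the mice had had the anterior talofibular and calcaneofibular ligaments of the ankle cut, a model of lateral ankle sprain. In 3 sham libraries the ankle had been opened at the same place with the ligaments left whole, so both groups share the incision and the anesthesia. Mice of both sexes, 6 to 8 weeks old, were used in the study, and neither the sex nor the number of animals behind a library is given, so the tests speak only for the variation among these 6 libraries, which may be technical. Both groups were compared to see whether a ligament injury in the periphery goes with a change of gene expression in the ganglia that supply the hind limb.

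SLC25 proteins are encoded in the nucleus, imported into mitochondria without passing through the matrix, and inserted into the inner membrane by the TIM22 complex. Each is built of repeated pairs of membrane helices, and the repeats typically carry a signature that begins with a proline, any residue and an acidic residue. Sensory neurons depend heavily on these carriers, since their long axons need ATP exported from mitochondria, and since the aspartate/glutamate carriers that take part in moving reducing equivalents and the mitochondrial glutamate carriers handle the same amino acids as the synapse.

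The signature was searched for in the translated coding sequence of 1 GENCODE M21 transcript per gene, and all 47 members were found there. It was taken as proline, any residue, aspartate or glutamate, any pair of residues, then lysine or arginine. At least 3 matches were present in 27 of 47 members (57.4%), against 2.36% of 21559 protein-coding genes, and at least 1 match in 44 members (93.6%), against 26.5%. The members without a match were Slc25a46, Slc25a51 and Slc25a53. The coding bases of the first match are printed in capitals, with 12 bases on either side, for the ADP/ATP carriers, the phosphate carrier and for 2 members whose sham and LAS libraries did not overlap, because they show what the family shares and how far close paralogs can be told apart by their reads. The match begins at residue 28 in Slc25a4, Slc25a5 and Slc25a22, at residue 41 in Slc25a31, at residue 80 in Slc25a3 and at residue 26 in Slc25a36.
Slc25a4: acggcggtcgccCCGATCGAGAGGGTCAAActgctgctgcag
Slc25a5: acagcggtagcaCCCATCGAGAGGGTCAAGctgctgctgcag
Slc25a31: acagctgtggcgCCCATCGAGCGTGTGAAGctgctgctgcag
Slc25a3: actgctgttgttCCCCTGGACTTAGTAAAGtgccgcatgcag
Slc25a22: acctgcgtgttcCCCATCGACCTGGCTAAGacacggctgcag
Slc25a36: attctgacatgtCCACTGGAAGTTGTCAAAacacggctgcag

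Among the coding sequences of the family, 41 had no window of 50 bases in common with a transcript of another gene. No window was shared between any members. The coding sequences of Slc25a4 and Slc25a5 were 77.4% identical and their proteins 89.6% identical, yet their windows differed everywhere. In Slc25a5, 63.6% of windows were also present in transcripts of 9 other genes, all annotated as pseudogenes. In Slc25a36, 69.3% of windows were present in a pseudogene, Gm13217. The shares were 29.3% in Slc25a40, 16.8% in Slc25a37 (with Gm16867, annotated as protein-coding), 5.97% in Slc25a3 and 1.66% in Slc25a51. How the authors' counting assigned reads that fit several loci is not given in the sources used here, so the levels of these 6 genes are uncertain to that extent.

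One library stood apart from the rest. Sham replicate 3 lay at 47.6 on the first principal component, while the other 5 libraries lay between -20.1 and 7.97, and its FPKM values summed to 448142 against 398503 to 411642. Its skeletal muscle marker genes (15 of 15 highest there) summed to 2726 FPKM against 114 to 394 FPKM elsewhere, its neutrophil markers (12 of 12) to 2292 against 78.6 to 467 FPKM, and its erythroid markers (9 of 10 tested) to 14191 against 3636 to 6452 FPKM. Among the muscle markers, Pvalb alone was at 75.7 of 117 FPKM in sham replicate 1 and at 72.5 of 114 FPKM in LAS replicate 3. It was at 243 of 2726 FPKM in sham replicate 3. The low muscle sums thus rest largely on this gene, and whether it stands for muscle there was not tested. Because sham replicate 3 stood apart, the counts of members and of the other gene lists are also given without it. Neuronal markers were present in every library and summed to 9643 to 10004 FPKM. Satellite glia markers summed to 2852 to 3033 FPKM in sham and to 2631 to 2789 FPKM in LAS libraries, without overlap, and Fabp7, a lipid-binding protein of these glia, was at 116, 121 and 156 FPKM in sham and at 80.7, 68.3 and 80.8 FPKM in LAS libraries (log2 fold change -0.77, limma unadjusted p = 0.00050, adjusted p = 1.00). Schwann cell markers summed to 3777 FPKM in LAS replicate 1 and to 4651 to 5996 FPKM in the other libraries. The part of these glia in the members' levels was not tested. In bulk ganglia, fewer cells of a type and less RNA per cell cannot be told apart.

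The family's share of all FPKM overlapped between the groups. The 47 members summed to 1507, 1505 and 1704 FPKM in sham replicates 1 to 3 and to 1627, 1510 and 1534 FPKM in LAS replicates 1 to 3. That was 0.378% ± 0.0019 (SD, n = 3) of all FPKM in sham and 0.381% ± 0.015 (SD, n = 3) in LAS libraries. Slc25a4, Slc25a3 and Slc25a5 together made up 53.3% to 56.8% of that sum. The median level of the 40 tested members, on the log2(FPKM + 0.1) scale, was 3.55, 3.51 and 3.54 in sham and 3.61, 3.62 and 3.61 in LAS libraries, each LAS library above each sham library. The median over all tested genes was 3.15, 3.13 and 3.19 in sham and 3.16, 3.17 and 3.17 in LAS libraries, which overlapped. The members' median level is set by the few members in the middle of the order. Slc25a36 and Slc25a16 lie there, and their own groups did not overlap, while those of Slc25a44, next in order, did. Whether the separation goes with a shift of the family was not tested. How often the median of other gene sets separates in this way was not tested. The median of the members' own log2 fold changes, a different quantity, was 0.0034, with 21 higher and 19 lower. Levels spanned a wide range, with 4 members at a mean of 100 FPKM or more, 20 between 10 and 100 FPKM, 15 between 1 and 10 FPKM and 8 below 1 FPKM. Between libraries of a group the tested members had a median SD of 0.091 on the log2(FPKM + 0.1) scale, against 0.124 for all 14006 tested genes. The SD was under that of the median gene for 29 of the 40 members. The members also lay at a higher level, with a median of 3.57 on this scale against 3.16 for all tested genes. Whether their spread differs from that of genes at the same level was not tested.

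**Figure D1:**
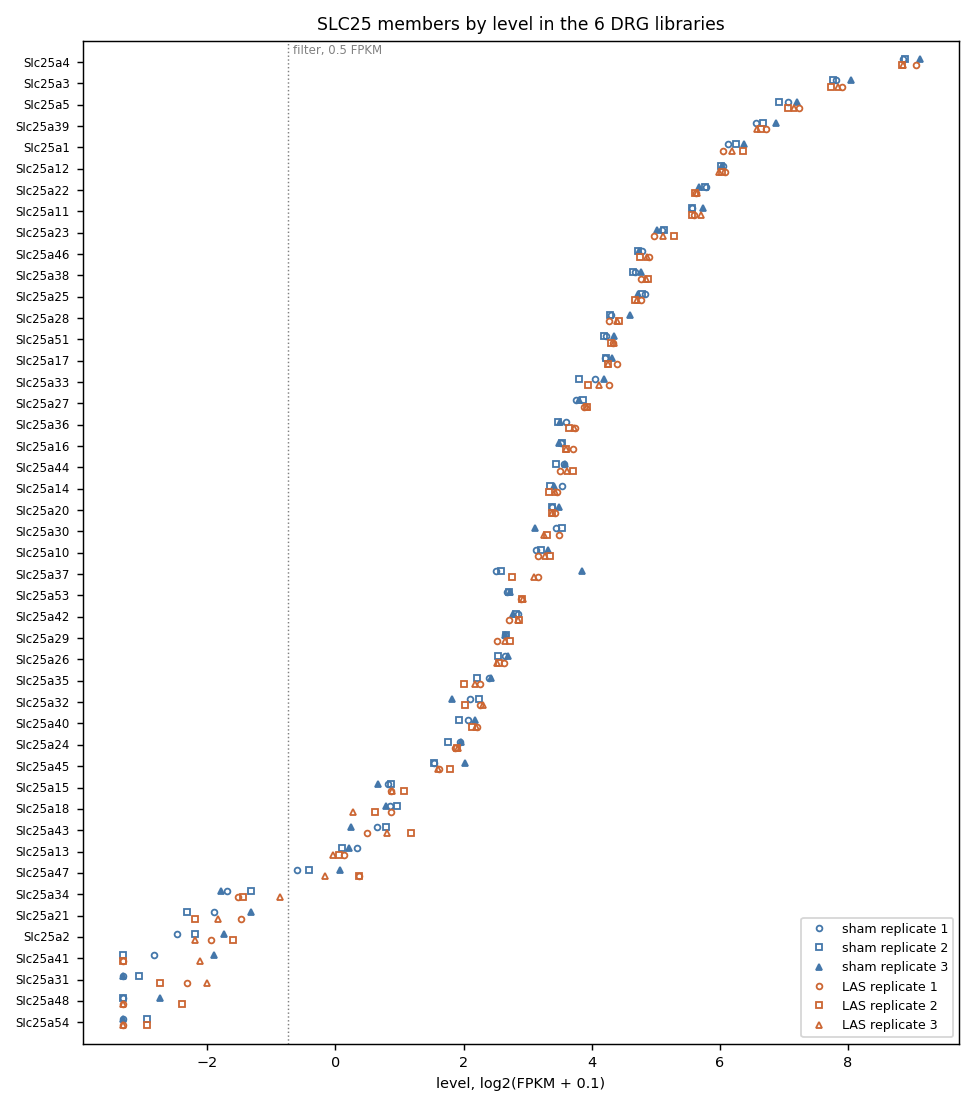
Level of SLC25 members on the log2(FPKM + 0.1) scale (x axis), ordered by mean FPKM (y axis), in 3 sham (blue) and 3 LAS (orange) libraries, with sham replicate 3 filled and the filter of 0.5 FPKM as a dotted line. Slc25a4 is highest, with a mean of 491 FPKM, and Slc25a37 has the widest spread of the members above 1 FPKM, set by sham replicate 3 at 14.4 FPKM.

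In order of level, the leading members were clearly separated. Slc25a4, Slc25a3, Slc25a5, Slc25a39 and Slc25a1 kept this order in every library without overlapping ranges. Further down, the ranges over the 6 libraries overlapped for 34 of the 42 pairs of neighbours, so most of the order there is not resolved. Slc25a1 and Slc25a12 overlapped, as did Slc25a22 and Slc25a11, and so did Slc25a46, Slc25a38 and Slc25a25. The gap that separated the tested from the untested members was the widest as a ratio of means, 3.19, with a mean of 0.888 FPKM for Slc25a47 and of 0.278 FPKM for Slc25a34.

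The ADP/ATP carriers exchange ATP made in the matrix for cytosolic ADP. Slc25a4, the form abundant in heart, muscle and neurons, was at 464, 476 and 555 FPKM in sham and at 533, 457 and 463 FPKM in LAS replicates 1 to 3. The groups overlapped, with sham replicate 3 and LAS replicate 1 high and the rest within 457 to 476 FPKM. Slc25a5, the form of most proliferating tissues, was at 134, 121 and 148 FPKM in sham and at 151, 134 and 142 FPKM in LAS libraries. The ratio of Slc25a4 to Slc25a5 was 3.45, 3.92 and 3.76 in sham and 3.54, 3.40 and 3.26 in LAS libraries, again overlapping. Slc25a4 supplied 30.2% to 32.8% of the family's FPKM in each library. Its log2 fold change, LAS minus sham, was -0.040 (limma standard error 0.099, adjusted p = 1.00), and it was 0.041 without sham replicate 3. Slc25a31, the germ cell form, was below the filter, listed at 0 to 0.02 FPKM in sham and at 0.05 to 0.15 FPKM in LAS libraries.

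Phosphate for ATP synthesis enters the matrix through Slc25a3, which also carries copper into mitochondria. It was at 225, 218 and 265 FPKM in sham and at 240, 213 and 231 FPKM in LAS libraries. Sham replicate 3 was the highest and LAS replicate 2 the lowest, and the groups overlapped (log2 fold change -0.045, limma standard error 0.090, adjusted p = 1.00). Without sham replicate 3 the sign turned, to 0.040.

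Carriers of glutamate and aspartate include 2 pairs of paralogs, each with a dominant member in the ganglion. Slc25a12, the neuronal aspartate/glutamate carrier of the malate-aspartate shuttle, was at 66.0, 65.0 and 65.5 FPKM in sham and at 67.4, 65.4 and 63.4 FPKM in LAS libraries. Its coefficient of variation over the 6 libraries was 1.95%, the lowest of the 47 members. Its paralog Slc25a13, the liver form called citrin, was at 0.87 to 1.17 FPKM, and Slc25a12 exceeded it by 56.5-fold to 72.9-fold. Of the glutamate carriers, Slc25a22 exceeded Slc25a18, at 1.11 to 1.85 FPKM, by 28.9-fold to 45.1-fold. Slc25a18 had the most negative log2 fold change of the tested members, -0.29, and its groups overlapped.

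Slc25a22, a glutamate/proton symporter whose loss in humans causes an infantile epilepsy, was lower in every LAS library than in every sham library. It was at 54.8, 54.3 and 50.9 FPKM in sham and at 49.6, 48.6 and 50.1 FPKM in LAS libraries. The step between the groups was small, since sham replicate 3 lay close to LAS replicate 3. The log2 fold change was -0.11 (limma standard error 0.053, adjusted p = 1.00) and did not pass the test. Without sham replicate 3 it was -0.14 (adjusted p = 0.40 from limma). After median centring, quantile normalization or scaling to the summed FPKM the groups overlapped.

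The mitochondrial carriers of citrate, dicarboxylates and oxoglutarate link the citric acid cycle to the cytosol. Slc25a1, which exports citrate for lipid synthesis, was at 69.6, 76.4 and 83.4 FPKM in sham and at 66.3, 82.2 and 72.6 FPKM in LAS libraries. Slc25a11, the oxoglutarate/malate partner of Slc25a12 in the malate-aspartate shuttle, was at 47.1, 47.1 and 53 FPKM in sham and at 48.4, 47.2 and 51.8 FPKM in LAS libraries. Neither separated the groups. Slc25a10, the dicarboxylate carrier, was at 8.62 to 10.1 FPKM, and Slc25a21, an oxodicarboxylate carrier, was below the filter at 0.10 to 0.30 FPKM.

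Carriers that adjust the matrix pool of adenine nucleotides in response to calcium were at intermediate levels. Slc25a23 was at 34.0, 35.0 and 32.2 FPKM in sham and at 31.3, 38.7 and 34.7 FPKM in LAS libraries, with LAS libraries at both ends of the range. Slc25a25 was at 25.5 to 28.5 FPKM and Slc25a24 at 3.30 to 3.81 FPKM. Slc25a41 was below the filter and listed at 0 in 3 libraries.

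Relatives of the uncoupling proteins are best known from the nervous system. Slc25a27, also called UCP4 and found mainly in neurons, was at 13.4, 14.5 and 13.9 FPKM in sham and at 14.6, 15.1 and 15.2 FPKM in LAS libraries. The groups did not overlap, but LAS replicate 1 and sham replicate 2 differed by less than the spread within sham libraries (log2 fold change 0.099, limma standard error 0.058, adjusted p = 1.00). They overlapped after median centring, quantile normalization or scaling to the summed FPKM. Slc25a14, also called UCP5, was at 9.97 to 11.6 FPKM and Slc25a30 at 8.59 to 11.6 FPKM, both overlapping.

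Slc25a37 and Slc25a28, the mitoferrins, bring iron into the matrix for heme and iron-sulfur clusters, Slc25a37 mainly in erythroid precursors and Slc25a28 in other tissues. Slc25a37 was at 5.59, 5.92 and 14.4 FPKM in sham and at 8.81, 6.65 and 8.44 FPKM in LAS libraries. Sham replicate 3 was far above the rest, and the 2 other sham libraries were the lowest of all. Its distance from the median of the other libraries, 1.1 on the log2 scale, was the largest of the 40 tested members. Over all libraries the log2 fold change of Slc25a37 was 0.017 (limma standard error 0.35, adjusted p = 1.00). Without sham replicate 3 every LAS library exceeded both sham libraries, with a log2 fold change of 0.45 (limma standard error 0.13, adjusted p = 0.38).

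The 6 libraries stood in the same order for Slc25a37, for the summed erythroid markers and for the summed neutrophil markers. Erythroid markers summed to 3636, 4453 and 14191 FPKM in sham and to 6452, 4976 and 5757 FPKM in LAS libraries. Neutrophil markers summed to 78.6, 114 and 2292 FPKM in sham and to 467, 133 and 292 FPKM in LAS libraries. Without sham replicate 3, 10 of 10 tested erythroid and 12 of 12 neutrophil markers were also higher in LAS libraries, 5 and 11 of them with an unadjusted limma p no higher than 0.05, and 0 passed after adjustment. In the same fit 58.1% of all tested genes were higher, and 6.45% were higher with such a p. The part of blood and marrow cells in the level of Slc25a37 was not tested. Slc25a28 varied less, at 19.6, 19.4 and 24.0 FPKM in sham and 19.2, 21.4 and 20.9 FPKM in LAS libraries, with sham replicate 3 the highest (log2 fold change -0.028, limma standard error 0.097, adjusted p = 1.00).

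**Figure D2:**
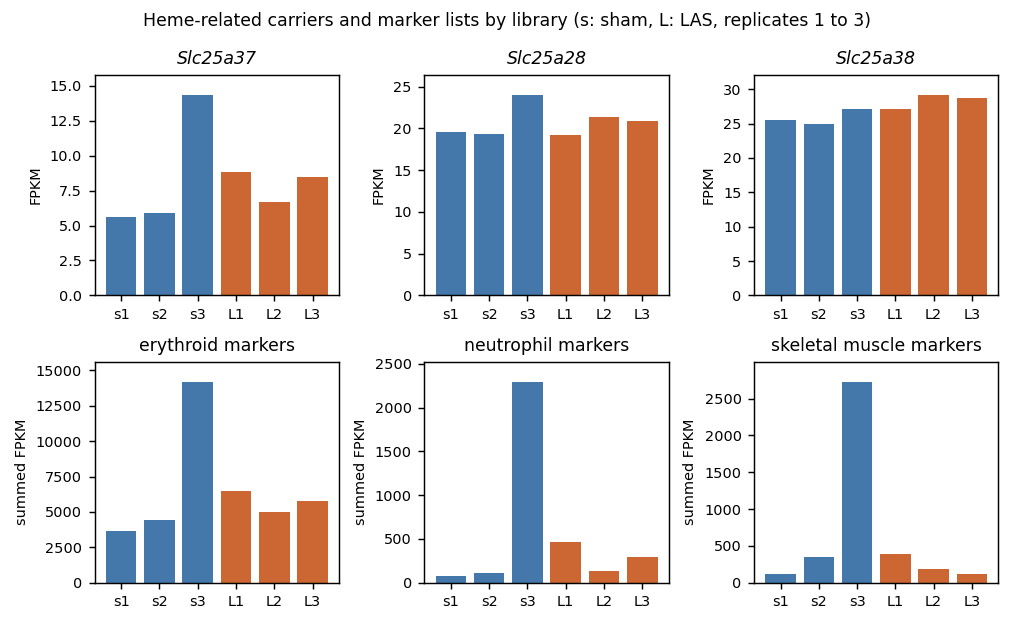
FPKM of the iron carriers Slc25a37 and Slc25a28 and the glycine carrier Slc25a38 (top) and summed FPKM of erythroid, neutrophil and skeletal muscle markers (bottom) in each library, sham in blue and LAS in orange. Sham replicate 3 is the highest bar in every panel but that of Slc25a38, where it is at 27.2 FPKM against 24.9 to 29.2 FPKM in the others.

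Slc25a38 brings glycine into mitochondria for the first step of heme synthesis. It was at 25.5, 24.9 and 27.2 FPKM in sham and at 27.2, 29.2 and 28.8 FPKM in LAS libraries, and the groups met at sham replicate 3 and LAS replicate 1. The log2 fold change was 0.13 (limma standard error 0.060, adjusted p = 1.00). Unlike that of Slc25a37, its value in sham replicate 3 was close to the median of the others, at a log2 distance of 0.0011. Slc25a44, a carrier of branched-chain amino acids, was at 10.8 to 12.9 FPKM.

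Glutathione uptake by mitochondria depends on Slc25a39 and its paralog Slc25a40. Slc25a39 was at 94.6, 102 and 117 FPKM in sham and at 105, 99.3 and 95.1 FPKM in LAS libraries, with sham replicate 3 the highest. Slc25a40 was far lower, at 3.71 to 4.51 FPKM. The ratio of the pair ranged from 21.3 to 27.4. The groups overlapped for both genes.

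Slc25a33 and Slc25a36 carry pyrimidine nucleotides for mitochondrial RNA and DNA synthesis, and both had a higher mean in LAS libraries. Slc25a36 was at 12.1, 11 and 11.2 FPKM in sham and at 13.3, 12.5 and 13.1 FPKM in LAS libraries. Every LAS library was above every sham library, with a log2 fold change of 0.18 (limma standard error 0.064, unadjusted p = 0.026, adjusted p = 1.00). It did not pass after adjustment, and more of its coding windows are shared with another locus than for any other member. Slc25a33 was at 16.5, 13.9 and 18.2 FPKM in sham and at 19.2, 15.3 and 17.3 FPKM in LAS libraries, which overlapped (log2 fold change 0.095, limma standard error 0.12, adjusted p = 1.00).

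Coenzyme A and its adenine nucleotide relatives are carried by 3 members. Slc25a16, linked to the mitochondrial coenzyme A pool, was at 11.4, 11.6 and 11.2 FPKM in sham and at 13, 12 and 12 FPKM in LAS libraries. The groups did not overlap (log2 fold change 0.11, limma standard error 0.061, adjusted p = 1.00), and LAS replicate 1 was the highest. Slc25a17, the peroxisomal member of the family, was at 18.3, 18.7 and 19.8 FPKM in sham and at 21, 19.1 and 19.1 FPKM in LAS libraries. Slc25a42 was at 6.42 to 7.22 FPKM. Both of these overlapped between the groups.

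Vitamin-derived cofactors reach the matrix through several carriers. Slc25a51, which imports NAD+, was the most abundant of them, at 18.6, 18.2 and 20.2 FPKM in sham and 20.0, 19.5 and 20.4 FPKM in LAS libraries. Slc25a32, which carries folate or FAD, was at 4.19, 4.61 and 3.44 FPKM in sham and at 4.69, 3.95 and 4.82 FPKM in LAS libraries, lowest in sham replicate 3. Slc25a26, the carrier of S-adenosylmethionine, was at 5.63 to 6.34 FPKM.

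Members for fatty acid and basic amino acid transport did not separate the groups. Slc25a20, the carnitine/acylcarnitine carrier of fatty acid oxidation, was at 10.3, 10.4 and 11.1 FPKM in sham and at 10.7, 10.3 and 10.3 FPKM in LAS libraries. Slc25a29, a carrier of basic amino acids, was at 6.17, 6.24 and 6.15 FPKM in sham and at 5.63, 6.52 and 6.14 FPKM in LAS libraries. Its sham libraries lay within the range of the LAS libraries. Slc25a15, the ornithine carrier of the urea cycle, was at 1.49 to 2.01 FPKM, and Slc25a2 was below the filter at 0.080 to 0.23 FPKM.

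Slc25a46, an outer membrane member that takes part in mitochondrial dynamics and is mutated in a human optic atrophy with neuropathy, was at 27.4, 26.4 and 26.6 FPKM in sham and at 29.5, 27.0 and 29.0 FPKM in LAS libraries. LAS replicate 2 lay within the sham range (log2 fold change 0.087, limma standard error 0.057, adjusted p = 1.00). The choline carrier Slc25a48 was below the filter, listed at 0 in sham replicates 1 and 2 and LAS replicates 1 and 3, and at 0.050 FPKM in sham replicate 3 and 0.090 FPKM in LAS replicate 2.

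The member with the smallest p was Slc25a53, for which no substrate is named here. It was at 6.27, 6.46 and 6.52 FPKM in sham and at 7.37, 7.44 and 7.54 FPKM in LAS libraries. Both groups were tight, and the gap between them exceeded the range within either. The log2 fold change was 0.21 (limma standard error 0.063, unadjusted p = 0.011, adjusted p = 1.00). When single libraries were left out it stayed between 0.20 and 0.22. After adjustment over all 14006 genes it did not pass under any alternative tried.

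Other members with no substrate group were low. Slc25a35 was at 5.18, 4.51 and 5.27 FPKM in sham and at 4.67, 3.94 and 4.42 FPKM in LAS libraries (log2 fold change -0.20, limma standard error 0.10, adjusted p = 1.00). Its groups overlapped through sham replicate 2. Slc25a45 was at 2.82, 2.80 and 3.98 FPKM in sham and at 2.96, 3.35 and 2.93 FPKM in LAS libraries, highest in sham replicate 3. Slc25a43 was at 1.47, 1.62 and 1.09 FPKM in sham and at 1.31, 2.16 and 1.64 FPKM in LAS libraries, lowest in sham replicate 3. Slc25a47, known from liver, had the largest log2 fold change among the tested members, at a low level. It was at 0.56, 0.65 and 0.95 FPKM in sham and at 1.19, 1.19 and 0.79 FPKM in LAS libraries, overlapping through LAS replicate 3 (log2 fold change 0.50, limma standard error 0.25, adjusted p = 1.00). Slc25a34, at 0.19 to 0.45 FPKM, and Slc25a54, at 0 to 0.03 FPKM, were below the filter.

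Across the 40 tested members, limma on log2(FPKM + 0.1) called 0 higher and 0 lower when an adjusted p no higher than 0.05 and a 1.5-fold difference were both required, where 0% of all 14006 tested genes were called. Only Slc25a53 and Slc25a36, 2 members, had an unadjusted p no higher than 0.05, both higher, against 3.53% of all genes (495 genes), 2.22% higher and 1.31% lower. LAS libraries lay wholly above sham libraries for 4 members, Slc25a53, Slc25a36, Slc25a16 and Slc25a27, and wholly below for 2, among them Slc25a22. The background for such separation was 9.7% of all tested genes, 5.89% higher and 3.81% lower. The members' median log2 fold change was 0.0034, with 21 higher and 19 lower, and that of all tested genes 0.0043, with 51.7% higher. For 26 members the change was under 0.1 in size, as for 63.4% of all tested genes.

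**Figure D3:**
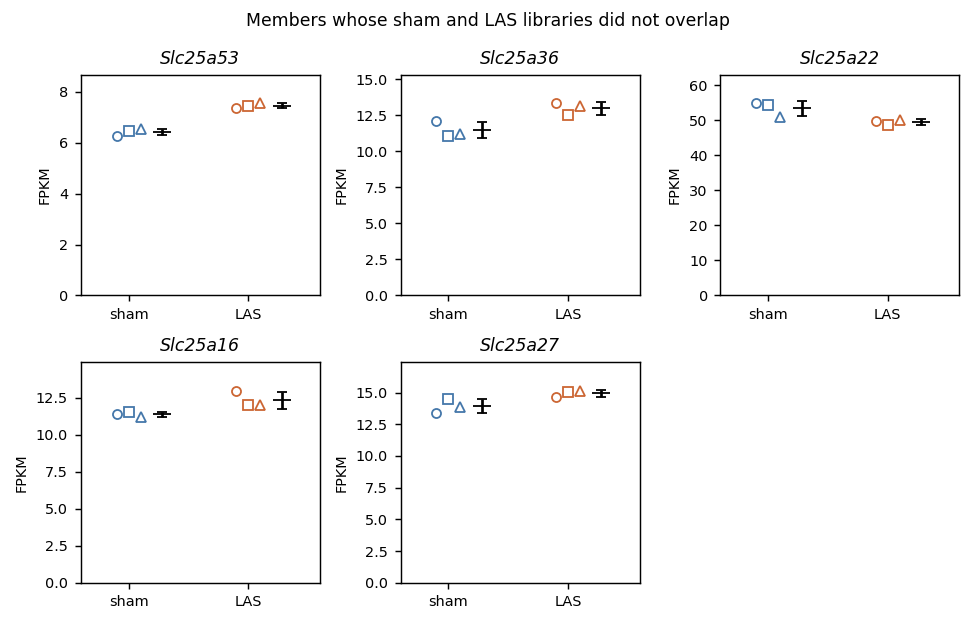
FPKM (y axis, from 0) in each sham (blue) and LAS (orange) library for 5 of the 6 tested members whose groups did not overlap, with circles, squares and triangles for replicates 1, 2 and 3 and the mean ± SD (n = 3) in black. Slc25a53 shows the widest gap relative to its spread, with 6.27 to 6.52 FPKM in sham and 7.37 to 7.54 FPKM in LAS libraries.

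Leaving out sham replicate 3 shifted the members and all tested genes upward. Of the 40 members 28 were then higher and 12 lower, with a median log2 fold change of 0.051, while 58.1% of all tested genes were higher, with a median of 0.024. An unadjusted p no higher than 0.05 was reached by 5 higher members, against 6.45% of all genes, and by 1 lower member, against 3.72% (both directions 10.2%). The members were Slc25a37, Slc25a53, Slc25a38, Slc25a47 and Slc25a36, and, lower, Slc25a22. None passed after adjustment, the smallest adjusted p among members being 0.38 from limma. In 12 members both remaining sham libraries lay below every LAS library, and in 3 above, against 17.6% and 11.3% of all tested genes (28.9% in all). With each library weighted by its estimated variance and none left out, 8 members had an unadjusted p no higher than 0.05, 6 of them higher (Slc25a53, Slc25a38, Slc25a36, Slc25a51, Slc25a47 and Slc25a5) and 2 lower (Slc25a22 and Slc25a18), against 6.61% of all genes higher and 4.01% lower (10.6% in all), and 57.3% of all genes were higher. None passed after adjustment. Separation of the groups, at 9.7% of all genes, does not depend on the weights.

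**Figure D4:**
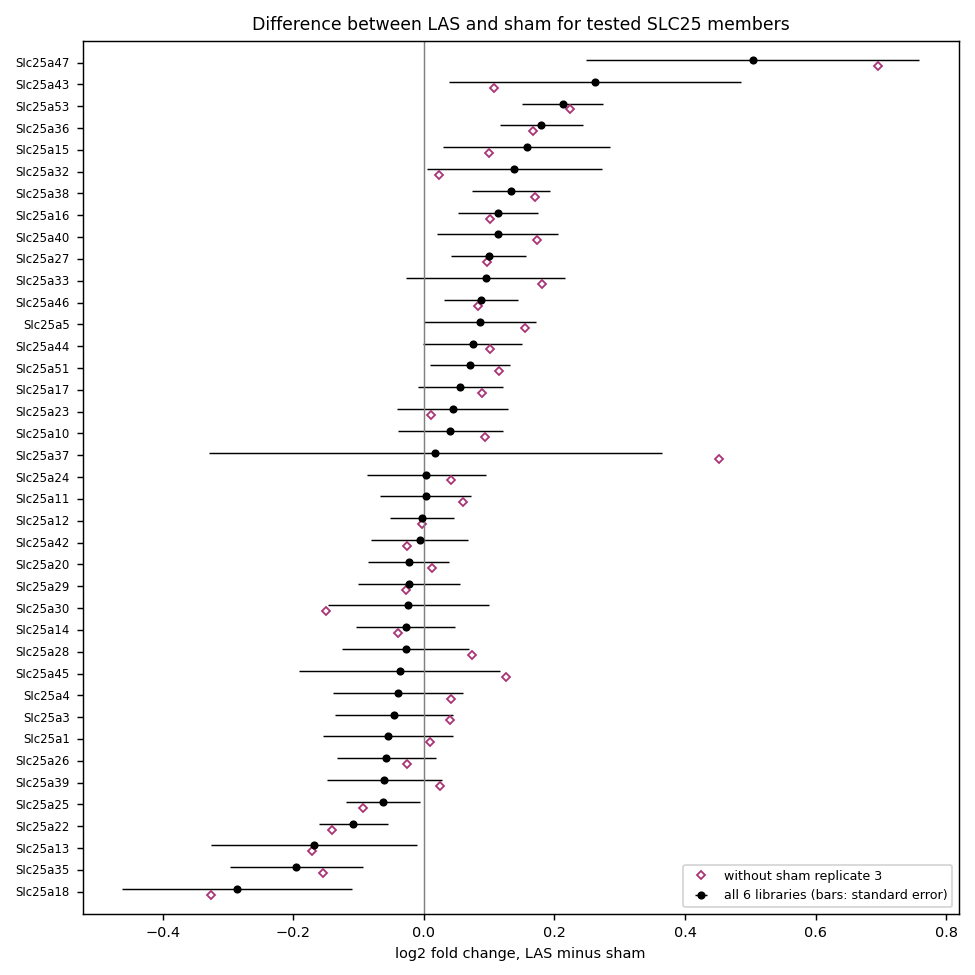
Log2 fold change, LAS minus sham, of tested SLC25 members on the log2(FPKM + 0.1) scale, with the standard error from limma over all 6 libraries (black) and the value without sham replicate 3 (open diamonds). Most members lie within 0.1 of 0, and Slc25a37 moves the most, from 0.017 to 0.45.

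Sham replicate 3 was the highest library for 12 of the 40 members, among them Slc25a4, Slc25a3, Slc25a39, Slc25a1 and Slc25a11, against 33.7% of all tested genes. Of the other carrier-fold genes, Ucp2, an uncoupling protein of immune cells among others, was at 75.7, 66.5 and 133 FPKM in sham and at 68.2, 78.4 and 75.9 FPKM in LAS libraries. Its value in sham replicate 3 stood apart, as that of Slc25a37 did. Ucp1, the uncoupling protein of brown fat, was at 1.06 FPKM in sham replicate 3 and at 0.09 FPKM or less in every other library. Mtch1, an outer membrane insertase, was at 171 to 199 FPKM and Mtch2 at 56.8 to 65.2 FPKM. Of 4 tested genes of this kind 1 was higher and 3 lower, and limma gave 0 an unadjusted p no higher than 0.05. Sham replicate 3 was the highest library for 3 of the 4, and without it all 4 were higher, again 0 with such a p. Without that library 58.1% of all tested genes were higher.

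For the machinery that imports the carriers, a list of 15 genes was tested, which may not cover the whole route. Of these, 5 were higher and 10 lower, with a median log2 fold change of -0.048. Sham replicate 3 was the highest library for 12 of the 15. Without it 12 genes were higher and 3 lower, with a median of 0.059, so the lean to lower values rests on that library. Among all tested genes 58.1% were then higher, with a median of 0.024. Over all libraries, in limma 2 higher and 0 lower genes had an unadjusted p no higher than 0.05, against 2.22% and 1.31% of all tested genes, and 0 passed after adjustment. The higher genes were Tomm70a, the outer membrane receptor for carrier precursors, and Timm29, a subunit of the TIM22 complex. Tomm70a was at 43.1, 43.6 and 40.1 FPKM in sham and at 47.9, 45.8 and 46.4 FPKM in LAS libraries. Timm29 was at 14.6, 14.9 and 15.8 FPKM in sham and at 16.6, 17.4 and 16.3 FPKM in LAS libraries. Neither gene's groups overlapped, as for 5.89% of all tested genes in this direction. With sham replicate 3 left out, the genes with an unadjusted p no higher than 0.05 were Timm29 and Tomm5. Both were higher, against 6.45% of all tested genes in that direction. Tomm70a was then at an unadjusted limma p of 0.051. The most abundant of the list, Tomm6 and Tomm5, small subunits of the outer membrane pore, were highest in sham replicate 3, at 158 and 77.2 FPKM.

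Other transporters of the inner membrane numbered 16 tested genes, with 9 higher and 7 lower and a median log2 fold change of 0.014. Here too 2 had an unadjusted p no higher than 0.05 in limma, both higher, against 2.22% of all tested genes, and 0 passed after adjustment. Mcu, the pore of the calcium uniporter, was at 13.2, 13.9 and 14.7 FPKM in sham and at 16.6, 16.9 and 15.2 FPKM in LAS libraries. Micu3, a regulatory subunit of the same channel found mainly in neurons, was at 26.8, 27.9 and 27.8 FPKM in sham and at 32.5, 29.0 and 32.0 FPKM in LAS libraries. For both, every LAS library exceeded every sham library, as for 5.89% of all tested genes. Both were again the genes of the list with such a p when sham replicate 3 was left out, against 6.45% of all tested genes higher. In that fit 10 genes of the list were higher and 6 lower, while 58.1% of all tested genes were higher. Mpc1, a subunit of the pyruvate carrier, was the most abundant, at 122 to 157 FPKM, and its groups overlapped.

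Genes that stand for mitochondrial content did not separate the groups. Of 17 tested genes 6 were higher and 11 lower, with a median log2 fold change of -0.011 and for 0 of them limma gave an unadjusted p no higher than 0.05. When sham replicate 3 was left out, 10 were higher and 7 lower, while 58.1% of all tested genes were higher. Such a p was reached by 2 of the higher genes, against 6.45% of all tested genes, and 0 passed after adjustment. Vdac1, the main outer membrane pore, was at 147, 145 and 166 FPKM in sham and at 164, 139 and 152 FPKM in LAS libraries. Cs, citrate synthase, was at 116, 112 and 116 FPKM in sham and at 118, 108 and 116 FPKM in LAS libraries. The smallest p of this list belonged to Opa1, a fusion protein of the inner membrane at 25.6 to 31.4 FPKM, and to Polg, the mitochondrial DNA polymerase at 8.94 to 10.3 FPKM, and both overlapped between the groups.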

How the data were processed

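Ipsilateral L3-5 DRG of sham and LAS model mice were sequenced on a BGISEQ-500 instrument, and the authors deposited FPKM values per gene, with at most 2 decimals, for 6 libraries. Aligner, counter, genome build and annotation were not given in the sources used here, so no coordinates are printed. FPKM values carry no counts, so the depth behind a value is unknown from them and no counting interval is given. The table has 22064 rows, of which 2758 are blank and not used. Its columns of the authors' own comparison (p-value, q-value and log2 fold change) were not used.

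Log2(FPKM + 0.1) was fitted using limma (version 3.58.1, under R 4.3.3), allowing the variance to follow the mean, over 14006 genes at 0.5 FPKM or more in at least 3 libraries, and p-values were adjusted over all of them by the Benjamini-Hochberg method. A call needed an adjusted p no higher than 0.05 together with a 1.5-fold difference. The limma test takes the place of the limma-voom named in the study's methods, which needs counts. It is not equivalent to the study's own test. The paper reports differentially expressed genes between these groups, more of them higher than lower in LAS mice. Here 0 genes were called, and the cause of this difference was not tested. Fold changes on this scale understate those of low genes. With 3 libraries against 3, an exact permutation test cannot go below 0.10, so none was run. The fit was checked on simulated data. Python 3.11.15, pandas 2.3.3, NumPy 2.4.6, Biopython 1.88 and Matplotlib 3.10.9 were used for the rest.

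The members and lists were chosen with earlier results of these data known. Values are given in every library for the 8 members of highest level, the 8 with the smallest p, those whose groups did not overlap, the most abundant of each substrate group, the 4 with the most deviating value in sham replicate 3, and both iron carriers. Of each other list, the 2 most abundant genes and the 2 with the smallest p are named, and Ucp1 was added after its values were seen. Fabp7, Pvalb, and Tomm5 in the fit without sham replicate 3, were also named after their values were seen. Marker lists of fat were summed as well, at 6.48 to 25.1 FPKM for brown fat (Elovl3 was not used), 3.85 to 60.3 FPKM for white fat. Some genes that this rule names are not reported here and are left out of the plots, while counts and medians include them. Alternatives covered the pseudocount, filter, scaling, variance model, replicate block and left-out libraries.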

Additional observations from a re-analysis of the deposited data

How the results depend on the processing

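In each of the 17 alternatives tried limma called 0 members and 0 genes at the thresholds, and the smallest adjusted p of any member was 0.34. With no filter, 4 of 47 members had an unadjusted p no higher than 0.05. Among them was Slc25a31, at 0 to 0.15 FPKM (limma unadjusted p = 0.0067). Of all 18623 genes in that fit, 403 were higher and 271 lower with such a p. The members with such a p numbered 8 with library weights and 6 without sham replicate 3 and LAS replicate 1 together. They numbered 1 to 6 when single libraries were left out (1 without sham replicate 2, 6 without sham replicate 3). Over all genes that passed the filter, those with such a p were 495 in the report, 1487 with library weights, 1449 without that pair of libraries and 288 to 1425 when single libraries were left out. The lower members numbered 12 to 22 without single libraries. The members' median log2 fold change was 0.066 with library weights, 0.024 after scaling to the summed FPKM, 0.061 without that pair and -0.0087 to 0.051 without single libraries. Scaling to the sum and leaving out the pair were chosen after the data were seen, and the cause of these shifts was not tested.

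With the replicate number as a block, 321 genes and 2 members were at an unadjusted p no higher than 0.05 and 0 were called. Deviations of same-numbered libraries correlated at -0.41, 0.24 and -0.15, so a pairing by number was not seen. With 3 libraries in each group these correlations cannot exclude it.

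Of the 28 named members that were tested, 14 kept the direction of their log2 fold change in each alternative, and 14 did not. With library weights it turned to 0.0091 for Slc25a4, 0.034 for Slc25a3, 0.062 for Slc25a28, 0.0030 for Slc25a20 and 0.071 for Slc25a45. It turned to 0.012 for Slc25a12 after quantile normalization and to 0.018 after scaling to the sum, and to -0.0022 for Slc25a11 after median centring. Without sham replicate 3 and LAS replicate 1 together it turned to 0.0013 for Slc25a3, 0.082 for Slc25a1, 0.12 for Slc25a28, 0.028 for Slc25a29, -0.010 for Slc25a32 and 0.15 for Slc25a45.

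When single libraries were left out, the log2 fold change of the members that turned ranged from -0.11 to 0.041 for Slc25a4, -0.10 to 0.040 for Slc25a3, -0.13 to 0.025 for Slc25a39, -0.14 to 0.018 for Slc25a1, -0.025 to 0.019 for Slc25a12, -0.036 to 0.060 for Slc25a11 (0.070 without the pair), -0.033 to 0.12 for Slc25a23, -0.083 to 0.073 for Slc25a28, -0.0091 to 0.18 for Slc25a33, -0.044 to 0.013 for Slc25a20, -0.22 to 0.45 for Slc25a37, -0.072 to 0.032 for Slc25a29 and -0.12 to 0.13 for Slc25a45. That of Slc25a32, which turned only without the pair, ranged from 0.024 to 0.23.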
